A study of Homo sapiens with 38 samples.

Results

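The genes described are 6 members of the Krüppel-like factor (KLF) family, KLF17, KLF4, KLF5, KLF2, KLF3 and KLF6, taken by their symbols from a count table of 57133 genes. They were followed in 38 RNA-seq libraries of Shef6, a human embryonic stem cell line that had been adapted to culture in the naive state without feeder cells. Every culture began from naive cells kept in PXGL, which combines LIF with inhibitors of tankyrase, MEK and protein kinase C, and the condition field of the labels spells it PXGLY. Naive cells (day 0) were sampled on a serum coating, made with fetal bovine serum, and on Geltrex, a basement membrane matrix. For capacitation, the step in which naive cells leave the naive state and become able to respond to lineage cues, the cells were plated on Geltrex without PXGL. The first experiment held 30 libraries: naive cells on both substrates, cells in N2B27 (a serum-free basal medium) or in E8 at days 2, 3, 4, 6 and 8, and cells in mTeSR at days 4, 6 and 8. E8 and mTeSR are commercial media for conventional human pluripotent cells, with FGF2 and a ligand of the TGF-beta/Activin pathway. The second experiment held 8 libraries: naive cells on Geltrex and, at day 4, cells in N2B27, in N2B27 with the tankyrase inhibitor XAV, and in N2B27 with FGF2, Activin A and XAV (FAX). Each of the 19 groups had 2 libraries. All groups come from 1 cell line. The labels do not say whether the 2 replicates of a group came from separate cultures, and the study's legends call them technical replicates in some places and biological in another, so that p-values measure only the spread between these libraries.

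Krüppel-like factors are transcription factors with a conserved zinc finger domain at the C-terminus that binds GC-rich and CACCC-type DNA elements, while their N-terminal parts differ and recruit activators or repressors. In mouse embryonic stem cells Klf2, Klf4 and Klf5 sustain self-renewal in overlapping ways, Klf4 as a target of LIF and STAT3 and Klf2 as a factor sensitive to MEK/ERK signalling. KLF17 is expressed in the human pre-implantation epiblast and in naive human cells, and KLF4 is one of the reprogramming factors. KLF3 acts mainly as a repressor through the corepressor CtBP, and KLF6 is a widely expressed activator that responds early to growth factors and stress.

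In the GENCODE annotation of hg38, KLF17 lies on the plus strand of chromosome 1 (44118821 to 44135140), KLF4 on the minus strand of chromosome 9 (107484852 to 107490482), KLF5 on the plus strand of chromosome 13 (73054976 to 73077541), KLF2 on the plus strand of chromosome 19 (16324826 to 16328685), KLF3 on the plus strand of chromosome 4 (38664197 to 38701517) and KLF6 on the minus strand of chromosome 10 (3775996 to 3785281). The members are therefore on 6 different chromosomes and share no locus. Promoter windows from RefSeq (GRCh38.p14), each covering the 250 bases before a start listed there, were matched by symbol for 5 of the 6 members. Such a start can differ from the GENCODE start of the gene. The KLF4 window and the second KLF5 window lie inside the spans given above, and the KLF6 window overlaps its span. The windows of KLF17 and KLF2 are shown because these members were called between the naive libraries of the 2 experiments. Capitals mark the letters CACCC and GGGCGG, searched on both strands, which are the CACCC box and the GC box that this family and the related SP factors are known to bind.
KLF17, chr1:44118571-44118820, plus strand, 5′ to 3′: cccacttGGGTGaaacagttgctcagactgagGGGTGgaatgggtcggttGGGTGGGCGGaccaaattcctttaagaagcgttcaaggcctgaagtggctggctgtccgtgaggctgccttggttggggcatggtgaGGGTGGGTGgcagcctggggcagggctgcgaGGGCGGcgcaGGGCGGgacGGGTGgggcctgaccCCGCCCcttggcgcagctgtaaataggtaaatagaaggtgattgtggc
KLF2, chr19:16324576-16324825, plus strand, 5′ to 3′: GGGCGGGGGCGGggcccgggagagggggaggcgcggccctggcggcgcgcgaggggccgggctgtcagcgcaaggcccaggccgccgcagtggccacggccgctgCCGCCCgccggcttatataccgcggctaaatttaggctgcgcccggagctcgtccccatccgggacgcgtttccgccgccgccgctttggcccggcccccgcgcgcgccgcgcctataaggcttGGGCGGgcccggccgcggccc
The KLF17 window held 6 CACCC matches and 4 GC box matches, with 1 overlap between a CACCC match and a GC box and a pair of CACCC matches that share a base, at a GC content of 62.8%. The KLF2 window held 0 CACCC matches and 4 GC box matches, at a GC content of 80.0%. Of all 35116 windows of the same length, 54.7% held at least 1 CACCC match, 0.384% held 6 or more, and 42.6% held at least 1 GC box. The KLF4 window held 0 CACCC and 4 GC box matches, the KLF6 window 0 and 2, and the windows at the pair of KLF5 starts held 1 and 0, and 2 and 2. A match of letters is a description of the window and not a binding site.

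Levels are given in CPM, the usual unit for a gene's share of all counts of a library, with library totals scaled by TMM. The 38 libraries held between 3038046 and 5612354 counts (median 4427277), and 3 counts, taken as the floor, corresponded to 0.518 to 1.06 CPM. The members were counted well above this floor except KLF2, whose lowest library held 5 counts. The labels of the naive libraries matched their markers: the 6 naive marker genes (among them DPPA5, SUSD2 and TFCP2L1) summed to between 1231 and 1561 CPM in the 6 naive libraries and to between 486 and 1223 CPM in the other 32, and the 6 primed or formative markers (among them ZIC2, SALL2 and CDH2) to between 18.97 and 24.3 CPM against between 233 and 759 CPM. The naive libraries of the second experiment have library names with day 4 and titles with day 0. Their naive marker sums, 1378 and 1231 CPM, lay under the 1442 to 1561 CPM of the first experiment. The lower of these sums lay close to the highest of the other libraries (1223 CPM). Their primed or formative sums, 19.7 and 24.3 CPM, lay far under all other libraries outside the naive group. These libraries stood apart from the naive libraries of the first experiment for several members, as given below, so the calls against naive cells were also made against the naive libraries of the same experiment. As these are bulk libraries, fewer cells of a type and less RNA per cell cannot be told apart.

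**Figure D1:**
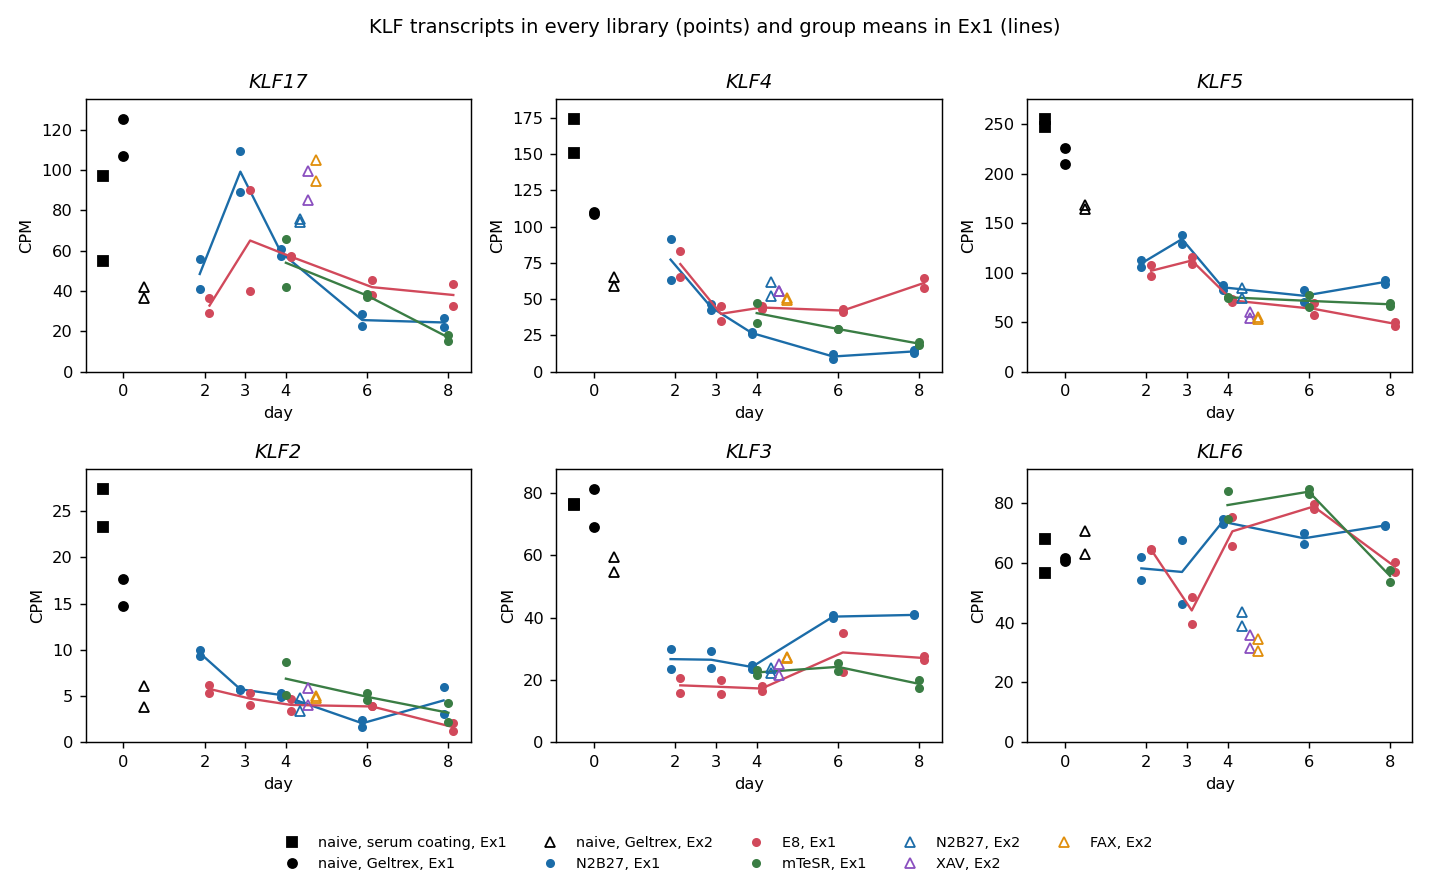
CPM of each member (6 panels, vertical axes starting at 0) against the day of culture (horizontal axis, day 0 is naive), with 1 point for each library, colours for the media, different symbols for the experiments and lines through the group means. Points of a day are set slightly apart sideways so that they can be told apart. KLF17, KLF4, KLF5, KLF2 and KLF3 lie highest in naive libraries of the first experiment or close to them, KLF4 separates by medium at days 6 and 8, and KLF6 stays between 30.4 and 84.6 CPM in all libraries.

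Against the 6 naive libraries, KLF2, KLF3, KLF4 and KLF5 fell in most media and days, KLF17 fell at day 8 in N2B27, E8 and mTeSR, at day 6 in N2B27 and mTeSR and at day 2 in E8, and KLF6 did not pass the threshold in any comparison with these 6 libraries. The tests were edgeR quasi-likelihood tests over all 16674 genes that passed the filter on low counts, which all 6 members passed, and a change was called at a Benjamini-Hochberg adjusted p-value under 0.05 with an absolute log2 fold change above 1. Over 15 comparisons of a medium and day with naive cells, the members were called lower 57 of 90 times and higher 0 times. KLF2 was lower in 14 comparisons, KLF3 in 13, KLF4 in 12, KLF5 in 12, KLF17 in 6 and KLF6 in 0. In N2B27, 1 member was lower at day 2, where 6.3% of all genes were called lower, 3 at day 3 (5.83% of all genes), and 4 each at day 4 (5.96%), day 6 (6.69%) and day 8 (7.03%). In E8, 4 members were lower at day 2 (10.7%), 3 at day 3 (5.99%), and 4 each at day 4 (7.21%), day 6 (7.47%) and day 8 (9.24%). In mTeSR, 4 were lower at day 4 (6.93%) and 5 each at day 6 (6.87%) and day 8 (8.21%). In XAV and in FAX 4 were lower at day 4, where 6.54% and 6.77% of all genes were lower. Both media were sampled in the second experiment only. Against the naive libraries of that experiment, given below, KLF4 and KLF2 were called lower in 0 of its 3 day 4 groups. KLF17 was called higher there in 2 of the 3. The 15 comparisons share the same 6 naive libraries and are not independent of each other.

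KLF17 was lower at day 8 than in naive cells in N2B27, E8 and mTeSR. In the first experiment its naive libraries held 54.7 and 97.0 CPM on serum coating and 107 and 125 CPM on Geltrex. In N2B27 the values were 56.0 and 40.9 CPM at day 2, 109 and 89.2 at day 3, 60.8 and 57.5 at day 4, 28.7 and 22.5 at day 6, and 22.0 and 26.8 at day 8. N2B27 cells thus passed through a level at day 3 that lay within the range of the naive libraries before the low levels of days 6 and 8. In E8 the values were 29.3 and 36.3 CPM at day 2, 39.9 and 90.3 at day 3, 57.0 and 57.2 at day 4, 38.3 and 45.6 at day 6, and 43.7 and 32.4 at day 8. In mTeSR they were 42.2 and 65.9 CPM at day 4, 36.8 and 38.7 at day 6, and 15.4 and 18.4 at day 8, which were the lowest of the series. Against the 6 naive libraries KLF17 fell in N2B27 at day 6 (log2 fold change −1.61 ± 0.34 SE, adjusted p = 0.000198) and day 8 (−1.68 ± 0.34, adjusted p = 0.000116), in E8 at days 2 (−1.25 ± 0.34) and 8 (−1.03 ± 0.32), and in mTeSR at days 6 (−1.05 ± 0.32) and 8 (−2.21 ± 0.37, adjusted p = 8.71e-06), the last a 4.62-fold lower level. The calls in E8 and at day 6 of mTeSR depended on single libraries. Without the second E8 library of day 8, for instance, the change was −0.84 with an adjusted p of 0.109, without the first E8 library of day 2 it was −1.06 with an adjusted p of 0.0720, and without either mTeSR library of day 6 the adjusted p was 0.0803 or 0.0639. Leaving out a naive library on Geltrex or the second on serum coating of the first experiment also brought the changes at day 8 of E8 (−0.84 to −0.96) and day 6 of mTeSR (−0.86 to −0.98) under the fold threshold. In E8 at day 6 the change of −0.90 passed the threshold without either naive library of the second experiment (−1.03 and −1.02).

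KLF4 fell in N2B27, E8 and mTeSR, and its levels at days 6 and 8 differed by medium. Naive libraries of the first experiment held 174 and 151 CPM on serum coating and 108 and 110.0 CPM on Geltrex. In N2B27 the level was 91.3 and 63.1 CPM at day 2, 46.3 and 42.3 at day 3, 25.9 and 27.3 at day 4, 8.72 and 12.05 at day 6, and 12.7 and 15.1 at day 8. All N2B27 libraries of the first experiment lay under its naive libraries, and the group mean at day 6 was the lowest of the 19 groups. In the second experiment N2B27 at day 4 held 52.4 and 61.6 CPM, against 59.2 and 65.1 CPM in its naive libraries (−0.12, adjusted p = 0.583). In E8 the level was 65.2 and 83.1 CPM at day 2, 34.6 and 45.1 at day 3, 45.0 and 43.4 at day 4, 43.3 and 40.8 at day 6, and 64.6 and 57.7 at day 8. In mTeSR it was 47.4 and 33.3 CPM at day 4, 29.1 and 29.6 at day 6, and 18.1 and 20.4 at day 8. E8 libraries therefore lay above both other media at days 6 and 8 with no overlap. Against the 6 naive libraries the change in N2B27 reached −3.43 ± 0.37 at day 6 (10.7-fold lower, adjusted p = 2.21e-09) and −3.00 ± 0.35 at day 8, in mTeSR −2.54 ± 0.35 at day 8, and in E8 −1.49 ± 0.31 at day 3 and −1.41 ± 0.31 at day 6. At day 8 in E8 the change of −0.87 ± 0.29 (adjusted p = 0.0123) was under the fold threshold, as were the changes at day 2 in N2B27 (−0.53 ± 0.28) and E8 (−0.59 ± 0.29). In XAV (−1.01 ± 0.29) and FAX (−1.16 ± 0.30) KLF4 was called lower, but against the naive libraries of their own experiment the changes were −0.16 (adjusted p = 0.471) and −0.31 (adjusted p = 0.142). Both calls also ended without the first naive library on serum coating (−0.84 and −0.99), and the XAV call also without the second (−0.90) or without either XAV library (adjusted p = 0.0699 and 0.0731).

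KLF5 was higher in every naive library than in every other library. Its naive libraries held 247 and 255 CPM on serum coating, 210 and 226 on Geltrex in the first experiment, and 164 and 168 in the second. In the other 32 libraries it ranged from 46.5 CPM, in E8 at day 8, to 138 CPM, in N2B27 at day 3. In N2B27 it went from 105 and 113 CPM at day 2 over 138 and 129 at day 3 to 82.7 and 87.5 at day 4, and was at 82.4 and 70.7 at day 6 and 92.2 and 88.9 at day 8. E8 libraries held 96.3 and 107 CPM at day 2, 115 and 109 at day 3, 70.1 and 73.5 at day 4, 57.3 and 69.4 at day 6, and 46.5 and 49.97 at day 8. The levels in mTeSR stayed between 65.7 and 77.1 CPM. Against naive cells the change was −0.96 ± 0.13 in N2B27 at day 2 and −0.66 ± 0.13 at day 3, both under the fold threshold with adjusted p-values of 8.17e-07 and 0.000136, and KLF5 was called lower in all media at days 4, 6 and 8. In E8 it was called lower at day 2 but not at day 3 (−0.92 ± 0.13). The largest fall was in E8 at day 8 (−2.14 ± 0.15, 4.40-fold lower, adjusted p = 2.81e-14). The call at day 2 of E8 (−1.06 ± 0.14) ended without its first library (−0.94), without the second naive library on serum coating (−0.998), with RLE scaling, with DESeq2 and against naive cells on Geltrex alone (−0.88). The change in N2B27 at day 2 passed the fold threshold without the first naive library of the second experiment (−1.02).

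KLF2 was the member with the fewest counts, between 5 and 124 per library. Its naive libraries of the first experiment held 27.3 and 23.3 CPM on serum coating and 17.7 and 14.7 CPM on Geltrex. In N2B27 it was at 9.37 and 9.93 CPM at day 2, 5.64 and 5.79 at day 3, 4.84 and 5.36 at day 4, 1.66 and 2.41 at day 6, and 3.07 and 5.94 at day 8. No library in N2B27, E8 or mTeSR reached the naive libraries of the first experiment. E8 went from 5.29 and 6.21 CPM at day 2 to 2.05 and 1.17 CPM at day 8, and mTeSR from 8.68 and 5.05 CPM at day 4 to 2.16 and 4.18 CPM at day 8. Against the 6 naive libraries KLF2 was called lower in every group except N2B27 at day 2 (−0.71 ± 0.39), but against the naive libraries of their own experiment XAV and FAX were at −0.03 each (adjusted p = 0.962) and not called. N2B27 at day 4 of the second experiment was likewise not called against these (−0.29, adjusted p = 0.568). Against the 6 libraries, the largest falls were in E8 at day 8 (−3.24 ± 0.53, 9.44-fold lower, adjusted p = 4.36e-06, from 11 and 5 counts) and in N2B27 at day 6 (−2.94 ± 0.51, 7.67-fold lower). For KLF2, 5 of the 14 calls ended when a single library was left out: N2B27 day 3 without either library (adjusted p = 0.0780 and 0.0617), E8 day 2 without either library (0.102 and 0.0709), E8 day 3 without the first library (0.0501), mTeSR day 4 without its second library (0.249) or the first naive library on serum coating (−0.98), and XAV without its second library (0.0716).

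KLF3 dropped at the first day sampled. Its 6 naive libraries held between 54.6 and 81.2 CPM and the other 32 between 15.4 and 41.1 CPM, with no overlap. In N2B27 the level was 29.9 and 23.4 CPM at day 2, 23.8 and 29.1 at day 3, 24.9 and 23.4 at day 4, and then 39.9 and 40.8 at day 6 and 41.1 and 40.7 at day 8. In E8 it was 15.9 and 20.6 CPM at day 2, 20.1 and 15.4 at day 3, 17.9 and 16.5 at day 4, 35.1 and 22.5 at day 6, and 26.3 and 27.7 at day 8. Levels at days 6 and 8 lay above those of days 2 to 4 in both media. In mTeSR the 6 libraries stayed between 17.3 and 25.6 CPM. Against naive cells the fall in E8 was −1.93 ± 0.18 at day 2 and −2.02 ± 0.17 at day 4 (4.05-fold lower, adjusted p = 1.59e-11), and in N2B27 −1.38 ± 0.16 at day 2. At days 6 and 8 in N2B27 the changes of −0.79 ± 0.15 and −0.77 ± 0.15 were under the fold threshold, with adjusted p-values of 8.5e-05 and 0.000102. The call at day 6 of E8 (−1.28 ± 0.16) ended without the second library of that group (−0.99), the lower of the pair.

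KLF6 was the one member that no comparison with the 6 pooled naive libraries called. Its naive libraries held between 56.7 and 70.9 CPM, the 26 other libraries of the first experiment between 39.6 and 84.6 CPM, with a median of 67.1 CPM, and the 6 day 4 libraries of the second experiment between 30.4 and 43.6 CPM. In the first experiment 6 of the 13 groups after naive did not overlap with its naive libraries (56.7 to 68.1 CPM). E8 at day 3 lay under them, and N2B27 at days 4 and 8, E8 at day 6 and mTeSR at days 4 and 6 above. All 6 day 4 libraries of the second experiment lay under every naive library. The changes against the 6 naive libraries ran from −0.97 ± 0.18 in FAX (95% interval −1.34 to −0.59, adjusted p = 8.81e-05) and −0.91 ± 0.18 in XAV to 0.40 ± 0.16 in mTeSR at day 6 (adjusted p = 0.0428). In E8 at day 3 the change was −0.52 ± 0.17 (adjusted p = 0.0191). Without the first FAX library the change in FAX passed the fold threshold (−1.06, adjusted p = 0.00214), as did that in XAV without the first XAV library (−1.01, adjusted p = 0.00274).

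**Figure D2:**
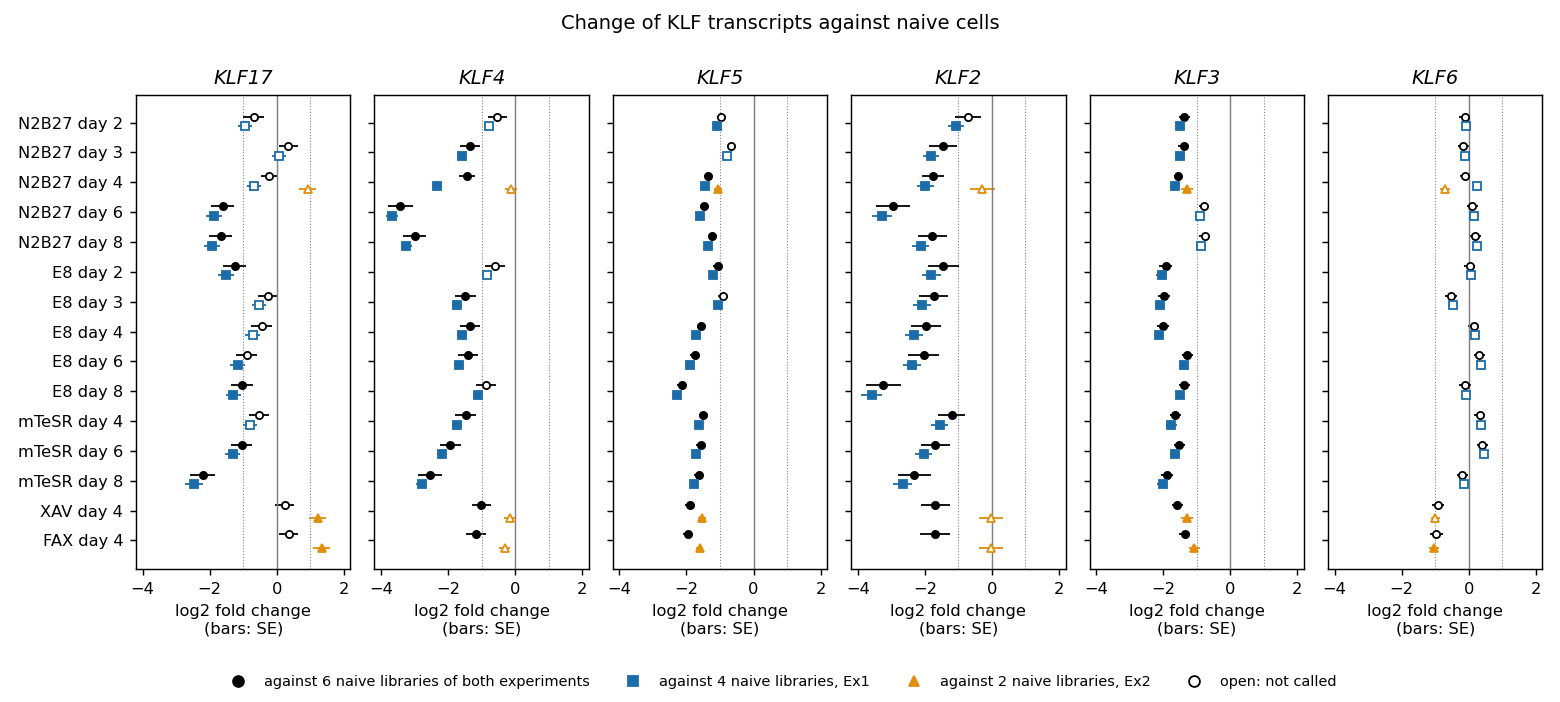
Log2 fold change of each member (panels) in each medium and day against naive libraries, from edgeR fits, with bars for 1 standard error, dotted lines at −1 and 1, and points for the comparison with all 6 naive libraries, with the 4 of the first experiment and with the 2 of the second. Filled points passed the threshold, and 0 marks the naive level. For KLF17, KLF4 and KLF2 the day 4 groups of the second experiment lie near or above 0 against their own naive libraries, from −0.31 to 1.34, while the groups of the first experiment reach down to −3.68.

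Taking the naive libraries of the same experiment changed calls for every member except KLF3. The naive libraries of the 2 experiments differed. In the second experiment the naive libraries held 36.7 and 42.2 CPM of KLF17, less than any naive library of the first. KLF2 was at 3.74 and 6.07 CPM there (11 and 22 counts), also under all 4 naive libraries of the first experiment. Compared on Geltrex, KLF17 was lower in the second experiment by −1.56 ± 0.26 (adjusted p = 9.22e-05) and KLF2 by −1.69 ± 0.31 (adjusted p = 0.00025), where 2.34% of all genes were called lower. KLF4 at 59.2 and 65.1 CPM (−0.81 ± 0.16, adjusted p = 0.000606) and KLF5 (−0.39 ± 0.10, adjusted p = 0.00908) were lower by less than the fold threshold, and KLF3 (−0.40 ± 0.15) and KLF6 (0.14 ± 0.14) did not pass. Between substrates within the first experiment no member was called, where 0.048% of all genes were, and KLF17 was at 0.62 ± 0.24 on Geltrex against serum coating (adjusted p = 0.218). Without the second library on serum coating, however, the KLF17 difference was 1.09 with an adjusted p of 0.0374. KLF4, KLF5 and KLF2 lay lower on Geltrex, with no overlap of libraries. KLF4 held 108 and 110 CPM on Geltrex against 151 and 174 CPM on serum coating. KLF5 held 210 and 226 against 247 and 255 CPM, and KLF2 14.7 and 17.7 against 23.3 and 27.3 CPM. The libraries of KLF3 and KLF6 overlapped. All differentiating cells were on Geltrex, while the pooled naive libraries include those on serum coating. The contrasts between the naive libraries of the 2 experiments compare experiments, and the experiment cannot be told apart from any difference in culture between them. Beside them, the naive marker sum was 1231 to 1378 CPM in the naive libraries of the second experiment and 1442 to 1561 CPM in those of the first, and the sum of the immediate early genes listed further on was 715 to 777 and 564 to 717 CPM. The mesoderm markers summed to 3.06 to 4.96 CPM against 11.2 to 21.8 CPM, and the further naive pluripotency factors (TBX3 and others) to 2434 to 2522 CPM against 3104 to 3315 CPM. With 21018 and 21759 genes detected, the naive libraries of the second experiment also had the fewest of the 38 libraries. The part of these values in the difference was not tested.

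Set against their own experiment's naive libraries, the 13 groups of the first experiment gave 54 lower calls of 78 and 0 higher calls. KLF2 was lower in all 13 groups, KLF5 in 12, KLF4 in 11, KLF3 in 11, KLF17 in 7 and KLF6 in 0. Of all genes, 5.3%, 5.13%, 5.25%, 7.15% and 7.46% were called lower in N2B27 from day 2 to day 8, 9.59%, 5.57%, 6.63%, 7.57% and 9.49% in E8, and 6.3%, 7.23% and 8.76% in mTeSR. Called here and not against the 6 pooled libraries were KLF4 in E8 at day 8 (−1.12 ± 0.14, adjusted p = 2.87e-08), KLF5 in N2B27 at day 2 (−1.10 ± 0.09) and in E8 at day 3 (−1.06 ± 0.09), KLF17 in E8 at day 6 (−1.16 ± 0.23) and KLF2 in N2B27 at day 2 (−1.07 ± 0.23). In the second experiment the 3 day 4 groups gave 2 higher and 7 lower calls of 18. KLF17 was higher, at 85.4 and 99.4 CPM in XAV (1.22 ± 0.26, adjusted p = 0.000312) and 94.7 and 105 CPM in FAX (1.34 ± 0.26, adjusted p = 0.000108), where 11.5% and 12% of all genes were higher, while N2B27 at 74.3 and 75.6 CPM was at 0.92 ± 0.27 (adjusted p = 0.00577). All 6 of these libraries lay above both naive libraries of that experiment. KLF4 (−0.31 to −0.12) and KLF2 (−0.29 to −0.03) were not called, with KLF4 between 49.5 and 61.6 CPM and KLF2 between 3.38 and 5.82 CPM. KLF5 and KLF3 were lower in all 3 groups (−1.61 to −1.07 and −1.30 to −1.07), and KLF6 was lower in FAX (−1.05 ± 0.15), where 9% (N2B27), 8.08% (XAV) and 8.99% (FAX) of all genes were lower.

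The step from naive cells on Geltrex to day 4 in N2B27 was sampled in both experiments, so the difference between the experiments could be tested. KLF17 changed by −0.98 ± 0.24 in the first experiment and by 0.92 ± 0.27 in the second, an interaction of 1.897 (adjusted p = 0.000522). KLF4 changed by −2.04 ± 0.17 and −0.12 ± 0.17, an interaction of 1.91 (adjusted p = 1.46e-06), and at day 4 in N2B27 it held 25.9 and 27.3 CPM in the first and 52.4 and 61.6 CPM in the second experiment. KLF6 changed by 0.27 ± 0.13 and −0.70 ± 0.15, an interaction of −0.97 (adjusted p = 0.00142). The step thus differed between experiments for 3 members, beside 11.7% of all genes with an adjusted p under 0.05 for this interaction. For KLF2 the steps were −1.66 ± 0.28 and −0.29 ± 0.37 (interaction adjusted p = 0.0526, which passed when any one of 11 libraries was left out, down to 0.0405), for KLF5 −1.36 ± 0.11 and −1.07 ± 0.11 (0.232), and for KLF3 −1.64 ± 0.16 and −1.30 ± 0.17 (0.401). Compared directly at day 4 in N2B27, KLF4 was 1.10 ± 0.17 higher in the second experiment (2.14-fold, adjusted p = 0.000212, where 0.39% of all genes were higher), and 0.98 without the second library of that group. KLF6 was 0.84 ± 0.14 lower in this comparison, a value under the fold threshold (log2 fold change −0.84, adjusted p = 0.000555).

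**Figure D3:**
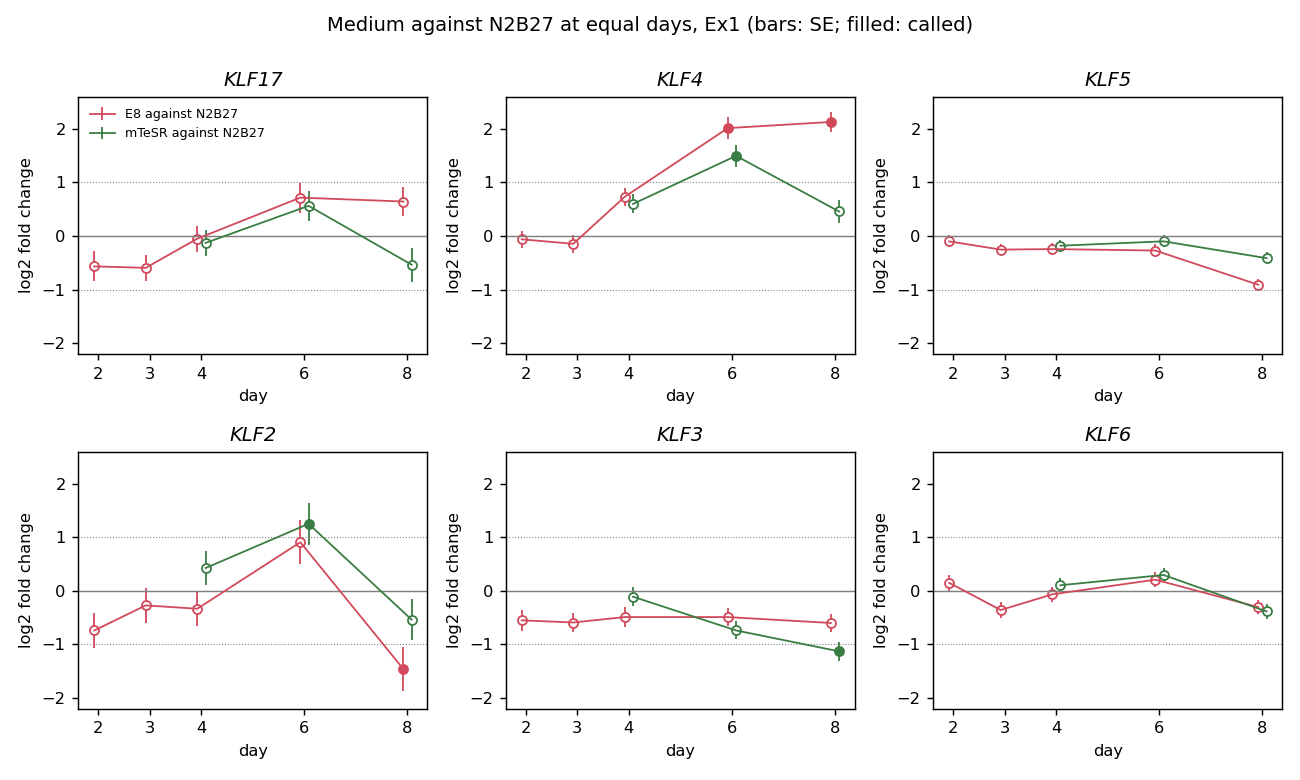
Log2 difference of E8 and of mTeSR from N2B27 at the same day for each member (panels), with bars for 1 standard error, filled points for calls and dotted lines at −1 and 1. KLF4 rises from near 0 at days 2 and 3 to 2.13 in E8 at day 8, while the difference in mTeSR is 1.49 at day 6 and 0.46 at day 8.

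Between media at the same day, the members were called 8 of 84 times, and KLF4 accounted for 4 of these calls. In E8 against N2B27, KLF4 was at −0.06 ± 0.16 at day 2, −0.15 ± 0.17 at day 3 and 0.73 ± 0.17 at day 4 (adjusted p = 0.00647), and then higher by 2.01 ± 0.20 at day 6 (4.04-fold, adjusted p = 1.72e-08, where 2.31% of all genes were higher) and 2.13 ± 0.19 at day 8 (4.37-fold, adjusted p = 5.24e-10, where 3.33% were higher). In mTeSR against N2B27 it was higher at day 6 (1.49 ± 0.21, 1.22% of all genes) and at 0.46 ± 0.22 at day 8 (adjusted p = 0.195). Against E8, mTeSR was lower at day 8 (−1.67 ± 0.19, adjusted p = 1.30e-07, 2.79% of all genes lower). None of these 4 calls was lost when any single library was left out. In the comparisons between media without a call of a member, 4.54%, 1.68% and 2.49% of all genes were called in E8 against N2B27 at days 2, 3 and 4, 1.58% in mTeSR against N2B27 at day 4, and 0.084% and 1.1% in mTeSR against E8 at days 4 and 6. Tested over the 5 days, the difference between E8 and N2B27 changed with the day for KLF4 (interaction adjusted p = 3.11e-08), KLF5 (0.00477), KLF17 (0.0243) and KLF2 (0.0469), beside 11% of all genes, and not detectably for KLF6 (0.115, but 0.0108 without 1 library) and KLF3 (0.990). The result for KLF2 no longer passed when any one of 26 of the 38 libraries was left out (adjusted p up to 0.145) and in 2 of 5 other settings (up to 0.0635), and that for KLF17 when any one of 5 libraries of the compared groups was left out (up to 0.0657). For mTeSR against N2B27 over 3 days no member passed (adjusted p from 0.0545 for KLF3 to 0.564 for KLF5), where 2.18% of all genes did. KLF3 did pass in 2 of 5 other settings and when any one of 10 libraries was left out (adjusted p down to 0.0276), KLF4 in 1 setting and without any one of 3 libraries (down to 0.0331), KLF17 in 1 setting (0.00908) and KLF6 without either of 2 libraries (down to 0.0459).

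The other calls between media were single days. KLF3 was lower in mTeSR than in N2B27 at day 8 (−1.13 ± 0.18, adjusted p = 5.58e-05, 2.16% of all genes lower). KLF17 was lower in mTeSR than in E8 at day 8 (−1.18 ± 0.31, adjusted p = 0.00864), a call that ended without the first E8 library (−0.94) or without either mTeSR library (adjusted p = 0.0920 and 0.0524). KLF2 was lower in E8 than in N2B27 at day 8 (−1.46 ± 0.40, adjusted p = 0.00979, 3.96% of all genes lower) and above its N2B27 level in mTeSR at day 6 (1.25 ± 0.39, adjusted p = 0.0375), on 5 to 33 counts. The first of these ended without the second N2B27 library (−0.88) or the second E8 library (adjusted p = 0.0863), and the second without any of its 4 libraries (adjusted p from 0.0922 to 0.237). KLF5 was lower in E8 than in N2B27 at day 8 by less than the fold threshold (−0.91 ± 0.11, adjusted p = 4.80e-07), and in KLF3 the 5 differences between E8 and N2B27 ran from −0.60 to −0.49. Of KLF17 in E8 against N2B27 no day was called, from −0.59 ± 0.24 at day 3 to 0.72 ± 0.28 at day 6, but at day 3 its 2 E8 libraries were far apart and the difference was −1.31 (adjusted p = 0.00176) without the higher one. Lineage markers differed between these media too: the summed hypoblast and endoderm markers of day 8 were at 152 to 170 CPM with N2B27, at 18.1 to 22.6 CPM with E8 and at 82.0 to 84.9 CPM with mTeSR. For the mesoderm markers the sums of day 8 were 218 to 289, 35.1 to 37.8 and 146 to 192 CPM in the same order of media, and those of day 6 were 190 to 205, 46.3 to 49.3 and 118 to 129 CPM. In E8 against N2B27 at day 8, 5 of 5 endoderm, 3 of 3 mesoderm and 5 of 6 trophectoderm markers tested were lower. Their part in the KLF differences was not tested.

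Adding XAV or FAX to N2B27 gave no call for any member at day 4, and few genes changed at all (0.57% in XAV, 0.336% in FAX and 0.012% between the pair). KLF17 was at 0.30 ± 0.24 in XAV (95% interval −0.19 to 0.79) and 0.42 ± 0.24 in FAX (−0.08 to 0.91). For KLF4 the differences were −0.04 (−0.37 to 0.30) and −0.19 (−0.53 to 0.15). KLF5 was lower by less than the fold threshold in both, at 59.8 and 54.4 CPM in XAV and 55.6 and 53.3 CPM in FAX against 74.5 and 84.1 CPM in N2B27 (−0.48 ± 0.11, adjusted p = 0.0207, and −0.54 ± 0.12, adjusted p = 0.0122). Between FAX and XAV the members differed by −0.15 to 0.22, and none passed.

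Between consecutive sampled days, 11 of 72 comparisons were called, most of them at the first step or between days 4 and 6 in N2B27. From naive cells on Geltrex to day 2, KLF3 changed by −1.49 in N2B27 and by −2.04 in E8 on the log2 scale, with adjusted p-values of 7.84e-09 and 7.40e-11. KLF17 was lower 2.39-fold in N2B27 and 3.54-fold in E8, KLF2 2.79-fold in E8 and KLF5 2.14-fold in E8, while 6.24% (N2B27) and 10.5% (E8) of all genes were lower over this step. KLF5 in E8 was at −0.98 without the first E8 library. From day 2 to day 3 KLF17 was higher in N2B27 (1.02 ± 0.25, adjusted p = 0.00656, 2.02% of all genes higher), and 0.87 or 0.83 without the first library of day 3 or the second of day 2. In E8 the same step was 0.997 ± 0.28 (adjusted p = 0.0097), just short of the fold threshold, and it was 1.41 without the first library of day 3 and 1.14 without the second of day 2. From day 4 to day 6 in N2B27, KLF4 changed by −1.35 (adjusted p = 3.10e-05), KLF2 by −1.31 (0.0182) and KLF17 by −1.21 (0.00212), where 0.81% of all genes were lower. Of these, KLF2 lost its call without any of its 4 libraries (adjusted p from 0.0615 to 0.149) and KLF17 without the second library of day 6 (0.0663). KLF17 also fell by 1.16 from day 6 to day 8 in mTeSR (adjusted p = 0.0366, 0.36% of all genes lower), which no longer passed without any of the 4 libraries (0.156 to 0.271).

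KLF3 moved the other way from day 4 to day 6, by 0.74 ± 0.16 in N2B27 (adjusted p = 0.00236) and 0.74 ± 0.18 in E8 (adjusted p = 0.00897), under the fold threshold. Without the second E8 library of day 6 the change in E8 was 1.03 (adjusted p = 0.00142). KLF4 in E8 went by 0.54 ± 0.17 from day 6 to day 8 (adjusted p = 0.0751). Its day 2 to day 3 steps of −0.81 ± 0.16 in N2B27 and −0.89 ± 0.17 in E8 were under the fold threshold, and passed it without the second N2B27 library of day 2 (−1.03) and without the first E8 library of day 2 (−1.08) or the second of day 3 (−1.10). In the 7 steps with no call of a member, 1.09% and 1.43% of all genes were called in N2B27 from day 3 to 4 and from day 6 to 8, 7.56%, 0.81%, 2.51% and 0.804% in E8 over the 4 steps after day 2, and 2.92% in mTeSR from day 4 to 6. KLF5 in N2B27 changed by −0.997 ± 0.10 from naive to day 2, just short of the fold threshold.

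Ordered by their mean level over the 19 groups, the ratio of the highest to the lowest group was 15.7 for KLF2, 15.6 for KLF4, 6.88 for KLF17, 5.20 for KLF5, 4.43 for KLF3 and 2.58 for KLF6. The highest group was naive cells on serum coating for KLF4, KLF5, KLF2 and KLF3, naive cells on Geltrex of the first experiment for KLF17, and mTeSR at day 6 for KLF6. The lowest was N2B27 at day 6 for KLF4, E8 at day 8 for KLF5 and KLF2, E8 at day 4 for KLF3, mTeSR at day 8 for KLF17 and FAX for KLF6. Of the 18 neighbouring pairs in each order, the libraries overlapped in 14 for KLF2, 14 for KLF3, 13 for KLF17, 13 for KLF6, 10 for KLF5 and 7 for KLF4, so that most single steps were within the range of the libraries for the members other than KLF4.

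Other genes of the KLF and SP family moved in both directions. Of 21 further genes listed, 17 were tested, and over the 15 comparisons against naive cells 9.78% to 18.2% of all genes were called higher and 5.83% to 10.7% lower. KLF9, a factor induced by steroid and thyroid hormones, was lower in all 15 comparisons against naive cells (−3.56 to −1.06, from 41.0 ± 5.91 CPM in naive cells, SD, n = 6), and in E8 at day 8 its libraries held 2.80 and 4.22 CPM. KLF11 was also lower in all 15 (−2.30 to −1.03, from 49.8 ± 4.43 CPM), and KLF10, its close relative and a TGF-beta inducible factor, was higher in all 15 (1.23 to 1.81, from 13.4 ± 1.54 CPM). SP5, a target of WNT signalling, was higher in 12 (from 1.44 ± 1.15 CPM), with 168 and 178 CPM in N2B27 at day 8 against 16.2 and 25.9 CPM in E8 at day 8. KLF8 was lower in 9, KLF15 higher in 7, SP6 lower in 7 and higher in 1, KLF12 and SP9 higher in 5 each, SP8 lower in 4, KLF7 lower in 3 and KLF13 lower in 2. KLF16, SP1, SP2, SP3 and SP4 were called in 0 comparisons. The direction was therefore not shared by the family. Per comparison 2 to 5 of the 17 genes were higher and 2 to 5 lower, with medians of log2 fold change from −0.55 to −0.02, beside medians of the 6 members from −2.05 to −0.70 and of all genes from −0.03 to 0.02.

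Of 12 further transcription factors that are known to act with KLF factors in naive pluripotency, TBX3 was lower in 11 of the 15 comparisons (−2.21 to 0.24) and TFCP2L1 in 9 (−2.27 to −0.26). ESRRB was higher in 11 (0.61 to 3.57), STAT3 in 6 and POU5F1 in 3. PRDM14 was lower in 4 and SOX15 in 1, while NANOG, TFAP2C, ZFP42, SOX2 and SALL4 were called in 0. The fall of KLF2, KLF3, KLF4 and KLF5 was thus accompanied by that of only part of this list. Several KLF genes are early response genes, so 16 immediate early genes were also followed, 11 of which were tested. FOS (4.20 to 5.67) and EGR1 (2.02 to 4.98) were higher in all 15 comparisons and JUN in 9. The sum over the list was 564 to 777 CPM in naive libraries and 598 to 1207 CPM in the others, with the highest values in E8 at day 6, where KLF6 was at 78.2 and 79.6 CPM. In the day 4 groups of the second experiment the sum was also high, at 1008 to 1059 CPM, and KLF6 was lowest there, at 30.4 to 43.6 CPM. The fibroblast markers summed to between 1.96 and 4.42 CPM in naive libraries and up to 171 CPM in the others, the trophectoderm markers to at most 10.3 and up to 116 CPM, and the amnion markers to at most 9.79 and up to 19.1 CPM. The part of other cell types in the KLF changes was not tested.

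By Pearson correlation of group means (log2 CPM) over the 19 groups, among 11439 genes with a mean of at least 10 CPM in a group, the genes with the pattern most like each member were these. They were CACYBP (r = 0.949), GTF2H1 (0.927) and TMCO1 (0.923) for KLF17, and SNHG12 (0.920), ARMT1 (0.905) and ZNF146 (0.897) for KLF4. For KLF5 they were NPEPPS (0.941), FAM20B (0.925) and HOOK3 (0.924), for KLF2 ZNF639 (0.938), PPIL2 (0.916) and SLC35B3 (0.910), and for KLF3 IRX3 (0.948) and TMEM37 (0.926). KLF6 had no close match, with LRBA (0.775), TCF12 (0.771) and AGO2 (0.756) at the top. Among the members themselves the correlation was highest between KLF5 and KLF2 (0.784) and lowest between KLF17 and KLF6 (−0.486). These values are descriptions over groups that share naive cells, days and libraries.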

How the data were processed

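Total RNA of 38 libraries was sequenced with QuantSeq, a 3′ mRNA protocol in which reads come from near the polyadenylated end of a transcript, so that levels are not divided by gene length and are not compared between genes. The deposited table gives unnormalised whole-number counts per gene, which the authors obtained on hg38 through nf-core/rnaseq and tximport, and the submitters' processing notes name FastQC 0.11.9, STAR 2.7.10a, Salmon 1.9.0 and DESeq2. Reads of near-identical genes can be split by such quantification. The table lists 57133 genes, 14445 of them with 0 counts in all libraries.

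The tests used edgeR 4.0.16 under R 4.3.3, with filterByExpr (16674 genes, 99.65% of counts), TMM scaling, and quasi-likelihood F-tests with Benjamini-Hochberg adjustment over all genes tested in each comparison. One fit with 16 levels pooled the 6 naive and the 4 N2B27 day 4 libraries of both experiments, for each medium and day against naive cells. Differences between media, days and experiments and the interactions came from a second fit, which kept the 19 groups apart. A call needed an adjusted p under 0.05 and an absolute log2 fold change above 1. Standard errors were derived from the F statistic. The fit with 19 groups was tested on simulated counts, only for E8 against N2B27 at day 8, and the fit with 16 levels was not. The floor of 3 counts covers counting error only, since reads without molecular identifiers are not independent molecules. Replicates agreed less closely than sampling noise allows, so no library was counted as deposited again. The chi-square between the replicates of a group, over all genes and divided by its degrees of freedom, measured this. It was highest in E8 at day 3 (10.2), N2B27 at day 3 (8.36), E8 at day 8 (8.17) and N2B27 at day 2 (8.02). In the remaining groups it was between 1.34 and 4.01.

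The members and lists were chosen with earlier results of these data known, and some list genes are markers that the study itself used on these libraries, so their counts are not independent evidence. Genes outside the members were given by rule: listed genes by count of calls, with values only for the 4 family genes called most often and for up to 3 genes of each other list, and the 3 genes most correlated with each member, of which 1 is not reported here. Alternatives were RLE scaling, plain totals, other filters, DESeq2 1.42.0, fits to the compared libraries alone, other sets of naive libraries, the experiment as a covariate, a replicate block and leaving out libraries.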

Additional observations from a re-analysis of the deposited data

Results flagged for a closer look

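Of the differences tested between groups, 7 results for members passed a test of the difference itself, at an adjusted p under 0.05 in the edgeR fit with 19 groups. The difference between E8 and N2B27 changed over days 2 to 8 for KLF17 (adjusted p = 0.0243), KLF4 (adjusted p = 3.11e-08), KLF5 (adjusted p = 0.00477) and KLF2 (adjusted p = 0.0469). The result for KLF2 no longer passed in 2 of 5 other settings (up to 0.0635) or when any one of 26 of the 38 libraries was left out (up to 0.145), and that for KLF17 when any one of 5 libraries was left out (up to 0.0657). For KLF4 this was a difference near 0 at days 2 and 3 and of 2.01 and 2.13 at days 6 and 8. KLF5 went from −0.10 at day 2 to −0.91 at day 8, KLF17 from −0.57 at day 2 to 0.72 at day 6, and KLF2 from 0.91 at day 6 to −1.46 at day 8. The step from naive cells on Geltrex to day 4 in N2B27 differed between the second and the first experiment by 1.897 for KLF17, by 1.91 for KLF4 and by −0.97 for KLF6 on the log2 scale. Both day 4 libraries of KLF17 lay above both naive libraries on Geltrex in the second experiment and under them in the first, and KLF4 was at 59.2 and 65.1 CPM in naive cells and 52.4 and 61.6 CPM at day 4 of the second experiment. A check for single libraries that stand apart needs at least 4, so it was run for each member only on the 6 naive and the 4 N2B27 day 4 libraries of both experiments together. None stood apart there, but the difference between the experiments widens these ranges, so the check says little about single libraries.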

How the results depend on the processing

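The number of member calls against naive cells was 57 as reported and between 46 and 62 under the other settings, with the lowest count when only the compared libraries entered each fit. It was 55 with RLE scaling, 57 with plain library totals, 56 and 57 with the other filters, 49 against naive cells on Geltrex alone, 57 with the experiment as a covariate and 54 with DESeq2. Against the naive libraries of the same experiment it was 61. This count includes KLF17 in XAV and FAX, called higher, and averages N2B27 at day 4 over both experiments. Leaving out 1 library at a time gave 53 to 59 calls against naive cells, 7 to 9 between media (8 as reported), 9 to 12 between days (11), 2 to 4 between substrates or experiments (3) and 5 to 10 for the interactions (7). Under the remaining settings these counts were 7 to 8, 10 to 13, 3 and 6 to 8. Of the 79 called results, RLE scaling ended 2, plain totals 0, each other filter 1, DESeq2 5 and fits to the compared libraries alone 13. Of the 57 against naive cells, comparisons with Geltrex naive libraries ended 8 and the experiment as a covariate 3 (with 3 gained). Those with naive libraries of the same experiment ended 4 (with 8 gained). The 8 gained include KLF17 in XAV and FAX, in the higher direction. The 4 ended do not include N2B27 at day 4, which was averaged over both experiments. In the second experiment alone, KLF4 (−0.12) and KLF2 (−0.29) were not called at that step. Chosen after seeing the data were the fits without the naive libraries of the second experiment (62 calls), those without the day 2 libraries (52 of 52 calls still passed), and every alternative for the interactions.

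Among the results that were called in at least 1 setting, 1 changed sign: KLF17 in XAV against naive cells, at 0.24 as reported, was at −0.0496 (adjusted p = 0.894) without the naive libraries of the second experiment, and neither value was called. The numbering of replicates did not pair the samples, since the correlations of same-numbered deviations between the 171 pairs of groups ran from −0.350 to 0.258, with a median of 0.003 and 4.09% over 0.1. With a replicate block the counts were 57, 8, 11, 3 and 6, and the fit with the block ended no call of a change.

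With 2 libraries in a group, a single library decided 12 of the 57 calls against naive cells, 3 of 8 between media and 5 of 11 between days. KLF2 rested on 5 to 124 counts, which limits its later levels most. Each medium and day was sampled in 1 experiment except naive cells on Geltrex and N2B27 at day 4, and mTeSR was not sampled before day 4.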
